A study of Homo sapiens with 8 samples.

Results

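The TRAF adaptors and the inhibitor of apoptosis proteins (IAPs) were examined as 10 transcripts, namely TRAF1 to TRAF7, BIRC2 (which encodes cIAP1), BIRC3 (which encodes cIAP2) and XIAP, of 57992 genes in the deposited counts. The set was chosen by the readout described here: TRAF1 and BIRC3 were selected on their adjusted p-values in the comparison of A20 siRNA with control siRNA, and their family members were added by name. Differences between those groups for TRAF1 and BIRC3 are therefore descriptions and not independent evidence. The data were RNAseq read counts from RKO, an established human colon carcinoma cell line. Of the 8 samples, 4 received control siRNA and 4 received a siRNA against A20, and all 8 were then treated with recombinant human wnt3a at 50 ng/mL for 24 hours. No unstimulated samples were analysed here, so the comparison is that of A20 siRNA with control siRNA under wnt3a, in a single cell line. Sample numbers are the replicate numbers of the labels. In bulk RNA, fewer cells holding a transcript and less of it per cell cannot be told apart.

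TRAF proteins bind the cytoplasmic tails of receptors of the TNF family and the adaptors of Toll-like and interleukin receptors, and most of them carry a RING domain that takes part in ubiquitin transfer. TRAF2 brings the ubiquitin ligases cIAP1 and cIAP2 to these receptors, and the chains they build recruit the kinases that activate NFkB, whereas XIAP binds and inhibits caspases directly. A20, the product of TNFAIP3, edits such ubiquitin chains and limits NFkB signalling, and both TRAF1 and BIRC3 are well-known NFkB target genes.

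Total counts were between 21226451 and 34194273 per sample, so that 3 reads corresponded to between 0.0875 and 0.141 CPM (reads scaled to a common library size with TMM factors). Such floors cover counting error only. TNFAIP3 itself fell from 5.47 ± 0.388 CPM (SD, n = 4) with control siRNA to 3.33 ± 0.215 (SD, n = 4) with A20 siRNA, which left 60.8% of the control level. Every A20 siRNA sample lay below every control sample (edgeR quasi-likelihood test, log2 fold change -0.71, adjusted p = 0.00258, and p = 0.0286 in an exact permutation test, two-sided, which is the lower limit for 4 against 4 samples). The cell line carried the epithelial transcripts EPCAM, KRT8 and KRT18 and the intestinal factor CDX2, but CDH1, KRT19, CDX1 and LGR5 had no read in any sample. Epithelial markers summed to 123.7 to 135.1 CPM in control siRNA samples and 120.4 to 129.5 with A20 siRNA. Leukocyte markers summed to at most 1.44 CPM, all but a trace of it CD68, and PTPRC and CD3E had no read. Intestinal markers summed to between 15.7 and 18.2 CPM over all samples, nearly all of it CDX2, since VIL1 and CDH17 had at most 1 read in any sample. Fibroblast and endothelial markers summed to at most 0.143 CPM. The sample labels do not say whether replicates were separate cultures, so errors and p-values cover the spread between these samples.

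Promoters are shown for BIRC3, TRAF3 and TRAF1, the 3 genes whose A20 siRNA samples all lay above all control samples. That order was found in 3.71% of all genes tested. The choice thus followed the outcome, and it includes TRAF1 and BIRC3, on which the set was selected. NFkB sites are marked because A20 limits NFkB signalling, and a role of NFkB in these differences was not tested. RefSeq promoter sequences (GRCh38.p14) were found for all 10 genes, in 17 windows of 300 bases that ran from 250 bases before to 50 after a transcript start. Both strands were searched for the NFkB consensus site, the AP-1 site TGACTCA, the CRE TGACGTCA and the TATA box TATAAA, and no pair of matches overlapped. The 250 bases before the start are printed in the direction of transcription, with matches to the NFkB consensus site in capitals, and the most upstream of the 3 TRAF1 windows is the one shown.
BIRC3, chr11:102317234-102317483, plus strand: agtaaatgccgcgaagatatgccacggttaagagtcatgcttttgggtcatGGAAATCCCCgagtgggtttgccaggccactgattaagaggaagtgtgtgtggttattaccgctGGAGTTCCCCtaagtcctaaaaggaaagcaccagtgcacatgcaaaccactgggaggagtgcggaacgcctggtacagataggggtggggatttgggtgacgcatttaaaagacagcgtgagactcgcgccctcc
TRAF3, chr14:102777199-102777448, plus strand: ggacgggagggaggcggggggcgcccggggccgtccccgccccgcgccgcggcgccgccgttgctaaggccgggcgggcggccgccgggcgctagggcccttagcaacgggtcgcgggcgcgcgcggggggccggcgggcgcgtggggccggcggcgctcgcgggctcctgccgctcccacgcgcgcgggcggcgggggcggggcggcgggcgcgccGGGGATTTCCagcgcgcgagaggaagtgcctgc
TRAF1, chr9:120929172-120929421, minus strand: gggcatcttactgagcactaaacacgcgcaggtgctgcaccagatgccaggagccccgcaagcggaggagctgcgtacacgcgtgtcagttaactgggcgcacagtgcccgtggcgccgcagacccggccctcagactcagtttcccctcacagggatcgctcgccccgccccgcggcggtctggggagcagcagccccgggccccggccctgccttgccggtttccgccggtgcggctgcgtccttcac

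BIRC3 held 2 matches, GGAAATCCCC beginning 199 bases before the start and GGAGTTCCCC beginning 135 bases before it, both with the consensus on the opposite strand. TRAF3 held 1 match, GGGGATTTCC, beginning 33 bases before its start. The TRAF3 site and the more distant BIRC3 site were the same 10 bases read from opposite strands. None of the 3 TRAF1 windows held a match, which says only that these letters were not in those windows. The other 7 genes had no NFkB match either, and the only other match among the searched sites was a CRE shared by the overlapping pair of BIRC2 windows, 7 and 167 bases before the respective starts. Among 35116 promoter windows of all genes, 11.3% held an NFkB consensus match, 4.95% the AP-1 site, 1.85% the CRE and 11.5% the TATA box. Counted by gene, 13.3% of 27305 genes held an NFkB consensus match in any of their windows. The matches are letters in a sequence, and no binding was measured.

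All 10 transcripts were detected in every sample and passed the filter on low counts, and their abundance covered a wide range. Levels are compared between genes as CPM per kilobase of annotated exon. TRAF7, an atypical family member with WD40 repeats in place of the TRAF domain, was the most abundant with control siRNA at 27.3 ± 0.504 CPM per kilobase (SD, n = 4). TRAF2 followed at 24.3 ± 0.327 and BIRC2 at 22.2 ± 0.386. XIAP at 10.0 ± 0.346 and TRAF4 at 9.50 ± 0.412 overlapped, and were the only neighbours in the order whose samples did. Below them came TRAF3 at 6.04 ± 0.0903, TRAF6 at 3.26 ± 0.247 and TRAF5 at 2.51 ± 0.133. BIRC3 (1.49 ± 0.109) and TRAF1 (0.331 ± 0.0356) were the lowest.

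The order was the same with A20 siRNA, where TRAF7 stood at 27.1 ± 0.235 CPM per kilobase and TRAF1 at 0.539 ± 0.0699 (SD, n = 4 each). TRAF7 was 82.5-fold above TRAF1 per kilobase in control siRNA samples and 50.3-fold above it with A20 siRNA. Counted over the length of the canonical transcript instead, which was added after seeing the data, TRAF2 led with 39.2 and TRAF7 followed with 33.3 CPM per kilobase in control samples. TRAF4 then stood above XIAP (14.99 against 11.2), and TRAF5 above TRAF6 (5.70 against 3.36). BIRC3 and TRAF1 were the lowest by either length, so the 2 genes that chose the set were also its rarest transcripts.

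**Figure D1:**
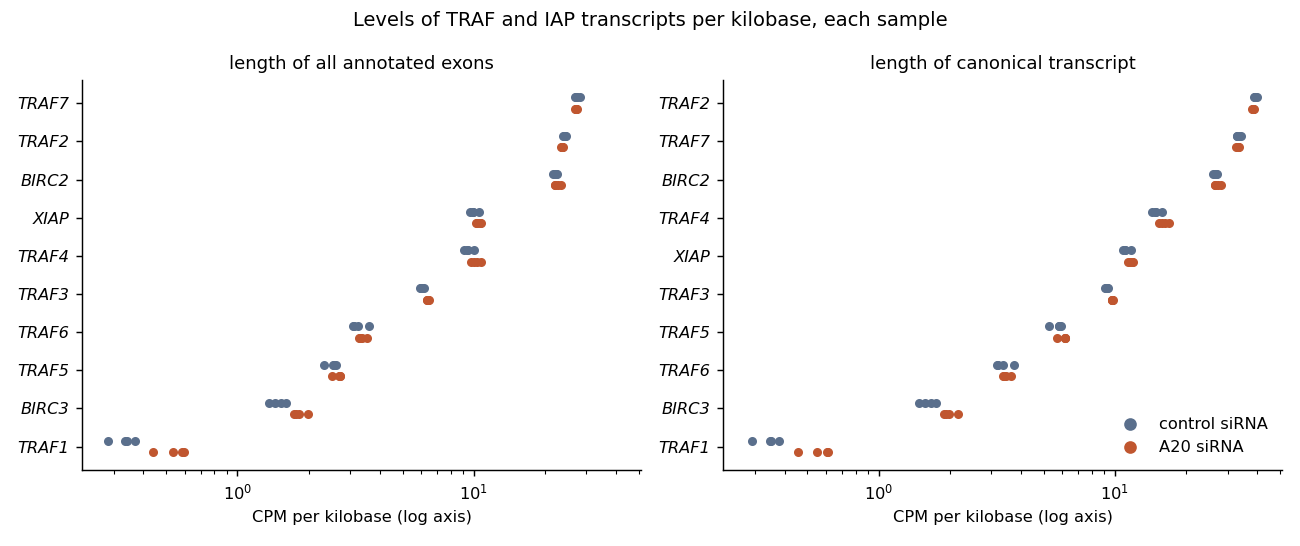
Level of each TRAF and IAP transcript in each of the 8 samples, in CPM per kilobase on a log axis, by the length of all annotated exons (left) and of the canonical transcript (right). TRAF1 and BIRC3 lie lowest in both panels, and the order from TRAF2 to TRAF6 changes with the length used.

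TRAF1 lacks a RING domain and acts mainly in complex with TRAF2. Its gene (ENSG00000056558) lies on chromosome 9 of GRCh38 from 120902393 to 120929173 on the minus strand, and its exons cover 4476 bases. Control siRNA samples 1 to 4 had 1.26, 1.64, 1.504 and 1.52 CPM of TRAF1, and A20 siRNA samples 1 to 4 had 2.65, 2.40, 2.62 and 1.97. The groups did not overlap, and A20 siRNA sample 4 was the lowest of its group. Means were 1.48 ± 0.159 and 2.41 ± 0.313 CPM (SD, n = 4 each), with a log2 fold change of 0.72 (standard error 0.15, 95% interval 0.42 to 1.03), or 162.6% of the control level. Those levels rested on few reads, between 36 and 42 per control sample and between 42 and 91 per A20 siRNA sample. The spread between control samples was 10.7% of the mean, against 16.1% from counting alone at that depth, and with A20 siRNA it was 13.0% against 12.3%.

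BIRC3 encodes cIAP2, a ubiquitin ligase of the TNF receptor complex. The gene (ENSG00000023445) lies on chromosome 11 from 102317484 to 102339403 on the plus strand. Its transcript measured 10.8, 11.5, 12.0 and 10.1 CPM in control siRNA samples 1 to 4, and 13.7, 13.2, 14.9 and 13.0 CPM in A20 siRNA samples 1 to 4. Every A20 siRNA sample exceeded every control sample, the closest pair being control sample 3 and A20 siRNA sample 4. The means were 11.1 ± 0.813 and 13.7 ± 0.860 CPM (SD, n = 4 each), with a log2 fold change of 0.30 (standard error 0.06, 95% interval 0.17 to 0.43), or 123.2% of the control level. Between 240 and 470 reads per sample lay behind these values.

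The neighbouring BIRC2 gene begins 7807 bases downstream of BIRC3 on the same strand, with no coding gene between them, and encodes the closely related ligase cIAP1. BIRC2 measured 101.2, 99.98, 97.7 and 101.6 CPM in control siRNA samples and 103.0, 99.9, 100.2 and 105.4 CPM with A20 siRNA, so the groups overlapped. Its log2 fold change was 0.03 (standard error 0.03, 95% interval -0.03 to 0.08), an interval that lay below that of BIRC3. However, BIRC3 was selected on this contrast, so that comparison and the read shares that follow are descriptions. BIRC3 supplied a small part of the reads of the pair, 9.68%, 10.3%, 10.97% and 9.08% in the control samples and 11.7%, 11.7%, 13.0% and 10.96% in the A20 siRNA samples. The means of that share were 10.0% ± 0.810 and 11.8% ± 0.826 (SD, n = 4 each). The highest control share (Wilson 95% interval 9.87% to 12.2%) and the lowest A20 siRNA share (9.80% to 12.2%) were nearly equal. The control share was marginally the higher, so the groups overlapped.

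XIAP, on the X chromosome, measured 100.05, 92.2, 94.8 and 94.8 CPM in control siRNA samples and 98.6, 97.5, 102.5 and 101.5 with A20 siRNA. Control sample 1 lay inside the range of the A20 siRNA samples. The means were 95.5 ± 3.30 and 100.05 ± 2.34 CPM (SD, n = 4 each), with a log2 fold change of 0.07 (95% interval 0.01 to 0.12).

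**Figure D2:**
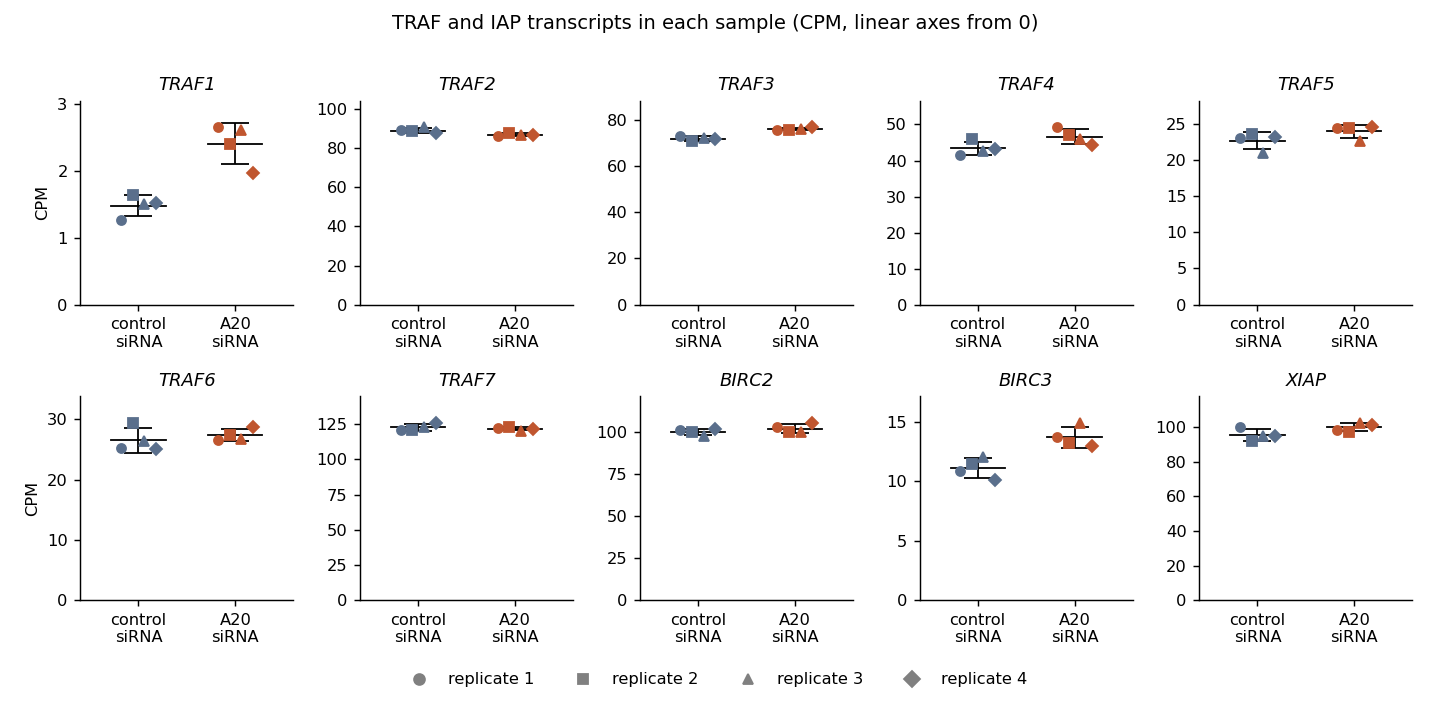
CPM of the 10 TRAF and IAP transcripts in each sample, on linear axes from 0, with the 4 control siRNA samples on the left and the 4 A20 siRNA samples on the right of each panel. Lines and bars are the mean and SD of 4 samples, and TRAF1 and BIRC3 show the widest gap between groups relative to their level.

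TRAF3 holds the kinase NIK at low levels together with TRAF2 and the cIAPs, and thereby restrains the non-canonical NFkB pathway. TRAF3 measured 73.1, 70.5, 72.0 and 71.5 CPM in control siRNA samples and 75.5, 75.6, 76.0 and 76.6 CPM with A20 siRNA. The groups were separate but close, with means of 71.8 ± 1.07 and 75.9 ± 0.511 CPM (SD, n = 4 each) and a log2 fold change of 0.08 (standard error 0.03, 95% interval 0.03 to 0.13). Both groups varied less than counting alone would give at their depth (1.49% against 2.30% in control siRNA samples and 0.673% against 2.21% with A20 siRNA), so the separation rested on a spread smaller than counting error.

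TRAF2, the adaptor that carries the cIAPs to the receptor, ran the other way. Control siRNA samples had 89.0, 88.5, 90.5 and 87.6 CPM and A20 siRNA samples 86.0, 87.6, 86.9 and 86.7 CPM, so that the groups met at 87.6 with the control sample marginally higher. Its log2 fold change was -0.03 (95% interval -0.09 to 0.02). TRAF5 measured 23.0, 23.6, 20.9 and 23.2 CPM in control siRNA samples and 24.4, 24.4, 22.6 and 24.5 with A20 siRNA. A single sample in each group, both numbered 3, lay below the rest, the groups overlapped, and the log2 fold change was 0.08 (95% interval -0.01 to 0.18).

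TRAF4, which is known from epithelial development and cell polarity more than from immune receptors, measured 41.6, 46.0, 42.6 and 43.3 CPM in control siRNA samples and 49.2, 47.2, 45.9 and 44.3 CPM with A20 siRNA. Control sample 2 overlapped the A20 siRNA range, and the log2 fold change was 0.11 (standard error 0.04, 95% interval 0.03 to 0.19). TRAF6, the ligase of Toll-like and interleukin-1 receptor signalling, measured 25.2, 29.4, 26.4 and 25.1 CPM in control siRNA samples and 26.5, 27.4, 26.8 and 28.7 CPM with A20 siRNA. Control sample 2 was the highest of all 8, and the interval of the log2 fold change ran from -0.06 to 0.14. For TRAF7 the values were 121.2, 120.9, 122.9 and 125.9 CPM in control siRNA samples and 122.0, 122.8, 120.3 and 121.8 with A20 siRNA, which overlapped, with an interval from -0.06 to 0.04.

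**Figure D3:**
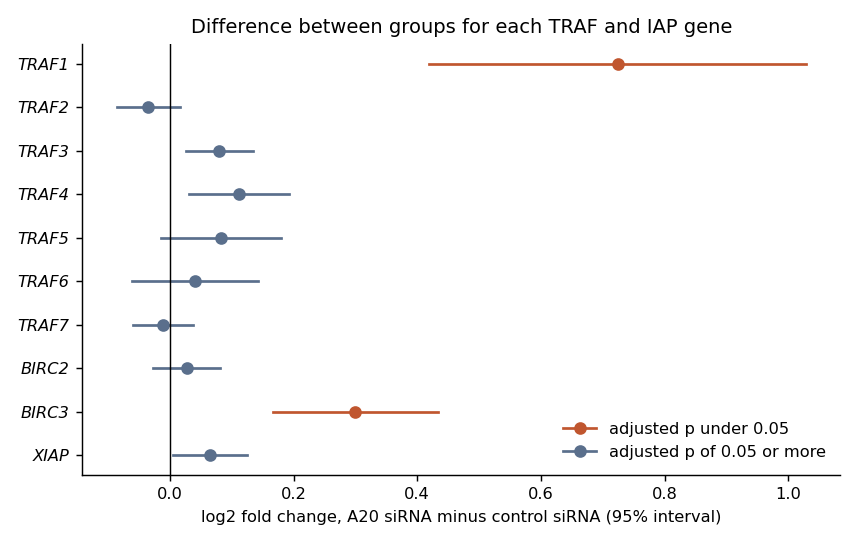
Log2 fold change of A20 siRNA over control siRNA for each TRAF and IAP transcript, with the 95% interval from the edgeR fit as a bar. Intervals of TRAF1, TRAF3, TRAF4, BIRC3 and XIAP lie above 0, and only TRAF1 and BIRC3 (orange) had an adjusted p under 0.05.

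Read as a set, the 10 transcripts included 2 higher ones, TRAF1 and BIRC3, and 0 lower ones at an adjusted p under 0.05 (edgeR quasi-likelihood test with Benjamini-Hochberg adjustment over 13412 genes). Among all genes tested 0.634% were higher and 0.611% lower, but nothing can be read from that contrast, because TRAF1 and BIRC3 were selected on it. Just inside the threshold was BIRC3 with an adjusted p of 0.0333 (TRAF1 had 0.0276), and just outside it was TRAF3 with 0.121 in the same edgeR fit. At an unadjusted p under 0.05, 5 were higher and 0 lower, where 8.81% of all genes were higher and 7.37% lower. DESeq2 gave 1 higher and 0 lower (0.873% and 1.28% of the genes to which it gave an adjusted p), and limma-voom 2 higher and 0 lower (0.604% and 0.626% of all genes). By sample order, 3 of the 10 had every A20 siRNA sample above every control sample, against 3.71% of all genes, and 1 of 10, TRAF2, had every A20 siRNA sample below, against 3.9% of all genes. Their median log2 fold change was 0.07, beside 0.0027 for all genes tested, and 8 of 10 were positive, beside 51.6% of all genes. Each of these counts and the median include TRAF1 and BIRC3. They therefore carry the same selection and only describe the set.

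The calls of TRAF1 and BIRC3 depended on which samples were included. TRAF1 had an adjusted p (edgeR) of 0.0687 without control sample 2, 0.0696 without control sample 3, 0.102 without control sample 4 and 0.102 without A20 siRNA sample 3. BIRC3 had 0.0844 without control sample 2, 0.119 without control sample 4 and 0.121 without A20 siRNA sample 3. Their log2 fold changes moved little in these fits, between 0.64 and 0.79 for TRAF1 and between 0.26 and 0.34 for BIRC3. Among all genes, the number called higher ranged from 6 to 567 when one sample was left out.

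A trend with transcript length moved with the groups. Deviations of log2 CPM from each gene's mean correlated with exonic length at Spearman's rho of -0.2001 to -0.111 in control samples 2 to 4 and 0.069 to 0.178 in A20 siRNA samples 1, 3 and 4, across genes, whereas control sample 1 (0.079) and A20 siRNA sample 2 (-0.082) went against their groups. Genes called higher had a median exonic length of 9246.5 bases, those called lower 3674 and all tested genes 4982, beside 4476 for TRAF1 and 7484 for BIRC3. With the length trend removed from each sample, the log2 fold changes were 0.73 for TRAF1 and 0.29 for BIRC3 (edgeR, adjusted p = 0.0163 and 0.0209). In the same fit TRAF3 fell from 0.080 to 0.056 and XIAP from 0.065 to 0.049. TRAF5 fell from 0.083 to 0.069 and TRAF6 from 0.041 to 0.032, whereas TRAF4 and BIRC2 rose slightly (0.112 to 0.113 and 0.028 to 0.029). TRAF2 (-0.035 to -0.030) and TRAF7 (-0.011 to -0.010) stayed negative. A fit without control sample 1 and A20 siRNA sample 2 was added after seeing the data. It gave log2 fold changes of 0.65 for TRAF1 and 0.30 for BIRC3 (edgeR, adjusted p = 0.0226 and 0.0185). XIAP also passed there, with 0.10 (adjusted p = 0.0329). Every sample kept in that fit had a length trend that went with its group, so the fit cannot separate length from group.

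**Figure D4:**
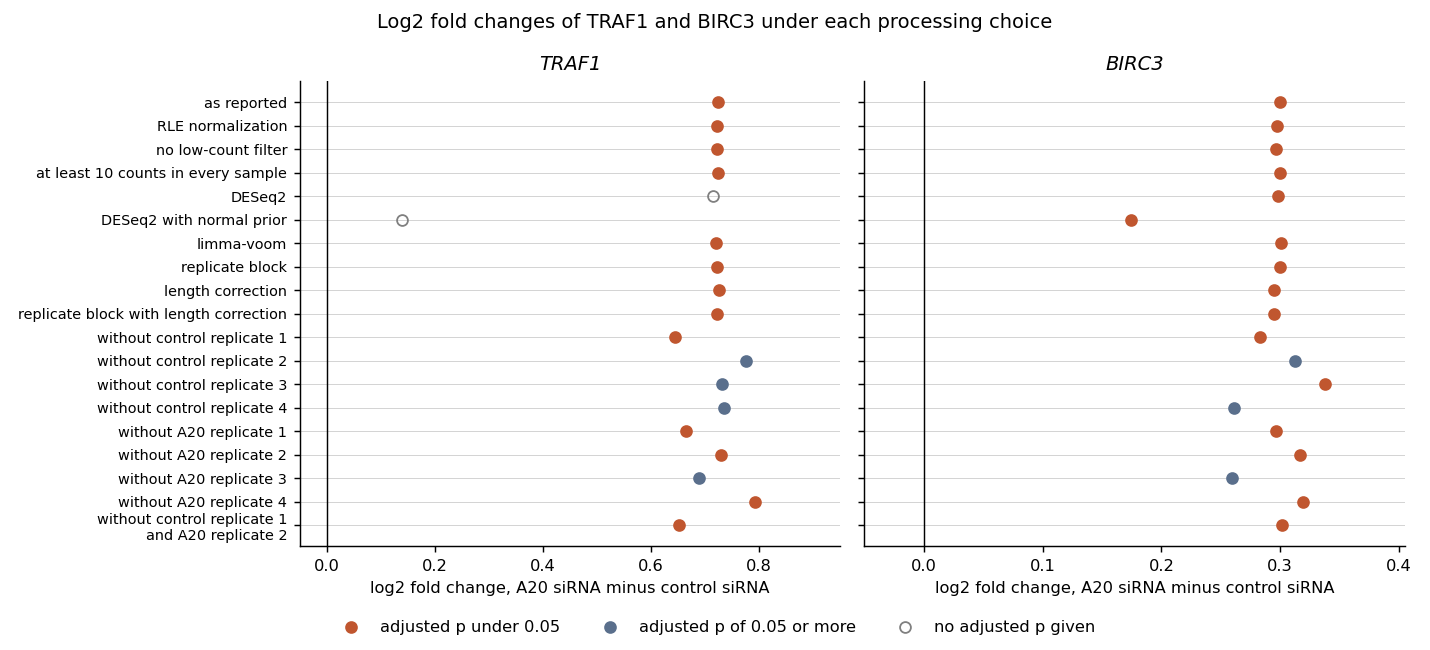
Log2 fold changes of TRAF1 (left) and BIRC3 (right) under each processing choice and with samples left out, filled orange where the adjusted p was under 0.05 and blue where it was not. The estimate of TRAF1 stays between 0.64 and 0.79 except with DESeq2's normal prior (0.14), and that of BIRC3 between 0.26 and 0.34 except with that prior (0.17).

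The make-up of the TRAF family was dominated by TRAF7 and TRAF2 in both groups. Of the summed level per kilobase of the 7 TRAF transcripts, TRAF7 made up 37.3% ± 0.664 in control siRNA samples and 36.7% ± 0.140 with A20 siRNA, and TRAF2 made up 33.1% ± 0.542 and 32.0% ± 0.314 (SD, n = 4 each). TRAF4 contributed 13.0% and 13.8%, TRAF3 8.25% and 8.64%, TRAF6 4.45% and 4.55%, and TRAF5 3.43% and 3.59%. TRAF1 was the smallest part, 0.452% ± 0.0455 in control siRNA samples and 0.728% ± 0.0939 with A20 siRNA.

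Part of the receptor family that signals through these adaptors was expressed in RKO cells. Of 29 genes of the TNF receptor superfamily 14 passed the filter on low counts, including the TNF receptor TNFRSF1A (91.6 ± 3.59 CPM with control siRNA, 91.0 ± 1.64 with A20 siRNA), LTBR and CD40. TNFRSF1B, which binds TRAF2 directly, had at most 2 reads in any sample. None of the 14 was called higher and 1 was called lower (edgeR), with the same counts from DESeq2 and limma-voom. Among all genes edgeR called 0.634% higher and 0.611% lower, and limma-voom 0.604% and 0.626%. For DESeq2 the shares were 0.873% and 1.28% of the genes to which it gave an adjusted p. These shares also stand beside the calls in the lists that follow. At an unadjusted p under 0.05 there were also 0 and 1 of 14, beside 8.81% and 7.37% of all genes. The lower one was TNFRSF10D, a decoy receptor for TRAIL, at 162.2 ± 3.68 and 150.8 ± 2.83 CPM (SD, n = 4 each), with a log2 fold change of -0.10 (edgeR, adjusted p = 0.0387). That adjusted p was 0.0813, 0.0925 or 0.149 without control sample 2, 3 or 4, and 0.0566, 0.136 or 0.0683 without A20 siRNA sample 2, 3 or 4. The median log2 fold change of the 14 receptors was 0.012.

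Most of the ligands of these receptors lay below the filter. Of 18 TNF superfamily ligands 5 passed the filter, and TNF, LTA, LTB, CD40LG, FASLG, CD70 and TNFSF10 had no read in any sample, which at this depth allows at most 0.0875 to 0.141 CPM. None of the 5 was called in either direction by edgeR, DESeq2 or limma-voom, and 1 was lower at an unadjusted p under 0.05, as were 7.37% of all genes. The smallest p belonged to TNFSF13 (0.693 ± 0.150 and 0.435 ± 0.0830 CPM, log2 fold change -0.66, edgeR adjusted p = 0.197), followed by TNFSF8 (9.51 ± 0.534 and 8.76 ± 1.02 CPM, SD, n = 4 each).

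Of 17 TRAF-binding adaptors and kinases 16 were tested, and none was called by edgeR, DESeq2 or limma-voom, with 3 higher and 1 lower of 16 at an unadjusted p under 0.05, beside 8.81% and 7.37% of all genes. The smallest p belonged to MAVS, the mitochondrial adaptor that recruits TRAF proteins in antiviral signalling (185.7 ± 7.07 and 196.8 ± 1.88 CPM, SD, n = 4 each, log2 fold change 0.08, edgeR adjusted p = 0.111, and 0.00518 without control sample 1), and TRAFD1 (log2 fold change -0.09, adjusted p = 0.206). The exons of MAVS cover 11771 bases, and its log2 fold change was 0.06 with the replicate block and the length correction. Control sample 1 was the control sample whose length trend went against its group. MAP3K14, which encodes NIK, the kinase held low by TRAF3 with TRAF2 and the cIAPs, was singled out after its values were seen. Its means were 4.72 ± 0.284 and 5.55 ± 0.487 CPM (SD, n = 4 each), with every A20 siRNA sample higher, and the edgeR fit gave a difference of 0.22 on the log2 scale (standard error 0.09, adjusted p = 0.232). All 13 genes of the ubiquitin machinery at the TNF receptor, among them RIPK1, CYLD and the LUBAC subunits RNF31, RBCK1 and SHARPIN, were tested. None was called by any of the 3 tools and none had an unadjusted p under 0.05 (8.81% of all genes were higher and 7.37% lower). Their log2 fold changes lay between -0.07 and 0.10, with TNIP1 (-0.06) and SHARPIN (-0.07) at the smallest p.

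The genes on either side of the IAPs in apoptosis were tested in the same fit. Of the 5 other BIR domain genes 2 were expressed, and neither was called by the 3 tools. BIRC6, a giant ubiquitin ligase, had 285.1 ± 17.8 and 308.2 ± 14.7 CPM (SD, n = 4 each), with a log2 fold change of 0.11 and an edgeR adjusted p of 0.138, which was 0.0132 without control sample 1, and it was the 1 of the pair with an unadjusted p under 0.05, where 8.81% of all genes were higher. The exons of BIRC6 cover 18535 bases, and its log2 fold change was 0.07 with the length trend removed. BIRC5, which encodes survivin, had a log2 fold change of -0.04. The IAP antagonists DIABLO, HTRA2 and SEPTIN4 passed the filter and XAF1 had no read. None of these 3 was called by any tool and 1 was lower at an unadjusted p under 0.05, as were 7.37% of all genes, namely HTRA2 (19.3 ± 1.26 and 17.4 ± 1.22 CPM, log2 fold change -0.13). SEPTIN4 rested on a mean of 0.441 and 0.404 CPM.

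All 10 caspases and caspase activators on the list were tested, none was called by edgeR, DESeq2 or limma-voom, and 3 of 10 were lower and 0 higher at an unadjusted p under 0.05, beside 7.37% and 8.81% of all genes. The smallest p belonged to CYCS, which encodes cytochrome c, at 211.7 ± 6.64 and 201.1 ± 5.07 CPM (SD, n = 4 each, log2 fold change -0.07, edgeR adjusted p = 0.167, and 0.0196 without control sample 1). CASP8, which starts the cascade at death receptors, had a log2 fold change of -0.04.

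TRAF1 and BIRC3 were also set beside 18 other NFkB target genes, of which 17 were matched and 11 tested. Of the 11, 1 was called higher and 1 lower (edgeR), where 0.634% of all genes were called higher and 0.611% lower. At an unadjusted p under 0.05 there were 1 and 2 of 11, beside 8.81% and 7.37% of all genes. DESeq2 called 0 higher and 1 lower (0.873% and 1.28% of the genes to which it gave an adjusted p). CXCL8 received no adjusted p there, with a log2 fold change of 1.41. With limma-voom there were 1 higher and 1 lower (0.604% and 0.626% of all genes). The higher one in the edgeR fit was the chemokine CXCL8, at 0.388 ± 0.0362 and 1.04 ± 0.216 CPM (SD, n = 4 each). Its log2 fold change was 1.41 from 8 to 44 reads per sample (edgeR, adjusted p = 0.0106, and 0.0507 without control sample 4). The lower one was BCL2A1, an antiapoptotic BCL2 relative, at 123.3 ± 5.29 and 109.8 ± 3.80 CPM, a log2 fold change of -0.17 (edgeR, adjusted p = 0.0211, and 0.0592, 0.0778 or 0.0990 without control sample 2, control sample 4 or A20 siRNA sample 3). The inhibitor NFKBIA, whose transcript is a standard readout of canonical NFkB activity, had 24.6 ± 0.630 and 25.5 ± 0.501 CPM (log2 fold change 0.05), and NFKB2 and RELB of the non-canonical pathway had log2 fold changes of 0.00 and 0.09. The median log2 fold change of the 11 was 0.013, and 7 of them were positive.

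**Figure D5:**
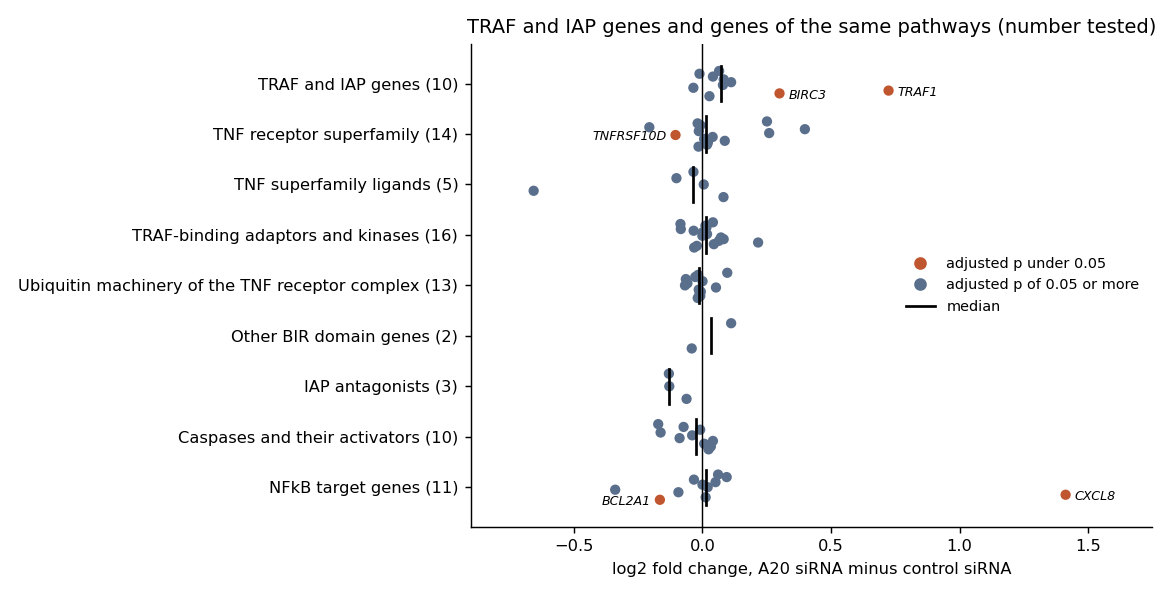
Log2 fold changes of the TRAF and IAP genes and of 8 lists of genes from the same pathways, each point a tested gene and each black line the median of its list. Outside the TRAF and IAP genes only CXCL8, BCL2A1 and TNFRSF10D had an adjusted p under 0.05 (orange).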

How the data were processed

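RNAseq libraries of polyadenylated RNA from 8 RKO samples (4 control siRNA, 4 A20 siRNA) were analysed, with groups and replicate numbers from the sample labels. The authors trimmed reads with Trimmomatic, mapped them to GRCh38.p7 with STAR, deposited raw counts of uniquely mapped reads per gene, and tested them with DESeq2. Tool versions, the GENCODE release and the strand setting are not given in the sources used here. Of 57992 genes, 29238 had no count. Symbols and coordinates came from GENCODE release 44 by Ensembl identifier (56948 matched). TRAF7 shared exonic bases on the opposite strand with CASKIN1, and TRAF4 with a lncRNA, which had at most 4 and 8 reads in any sample. BIRC3 shares 126 bases with an opposite-strand lncRNA not analysed here. Promoters came from RefSeq.

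Counts were filtered with filterByExpr (minimum 10), normalized by TMM and tested without covariates by edgeR 4.0.16 (quasi-likelihood, Benjamini-Hochberg, threshold 0.05) in R 4.3.3, over 13412 genes. Standard errors came from the F statistic. Levels are CPM. TNFAIP3 was also tested by exact permutation. Alternatives were limma-voom (3.58.1), DESeq2 1.42.0 (also with a normal prior), RLE normalization, a stricter filter (every sample at 10 counts or more), no filter, a replicate block, removal of a loess trend with exonic length (span 0.5), both together, and each sample left out. The fit without control replicate 1 and A20 siRNA replicate 2, and canonical lengths, were added after seeing the data. Each pair of replicates differed by more than sampling noise. Code was tested on simulated data.

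The genes and pathway lists were chosen with earlier results of these data known. Named genes are the 10 TRAF and IAP genes, TNFAIP3, genes of each list with an adjusted p under 0.05 (otherwise the 2 of smallest p), and the 3 genes most like TRAF1 and BIRC3 in pattern. Other list genes were named for their role, or after their values were seen. Some genes that this rule or the marker lists name are not reported here.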

Additional observations from a re-analysis of the deposited data

Results flagged for a closer look

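Within the groups of 4 samples, the genes named in the text were checked for a sample that stood far from the other 3, by Dixon's ratio of its gap to the group's range. Of 64 groups 5 held such a sample, where 1 in 20 groups, or 3.2, would by chance. One was a TRAF gene. TRAF5 in A20 siRNA replicate 3 had 22.6 CPM, while the other 3 A20 siRNA samples lay between 24.4 and 24.5, a gap of 0.937 of the range. Control replicate 3 was also the lowest of its group for TRAF5. TNFAIP3 in A20 siRNA replicate 2 had 3.01 CPM, below the 3.40 to 3.47 of the others. SEPTIN4 in A20 siRNA replicate 3 had 0.328 CPM, below 0.423 to 0.437. Of the genes most like TRAF1 and BIRC3 in pattern, OGFRP1 in control replicate 2 had 0.352 CPM, above 0.254 to 0.270, and SAMD9L in control replicate 3 had 7.56 CPM, above 6.62 to 6.73. The cause of these gaps was not tested.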

How the results depend on the processing

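All 10 TRAF and IAP genes kept the direction of their log2 fold change under the alternatives tried, and none was called lower under any. The number called higher was 1 with DESeq2, with and without its normal prior, because TRAF1 then received no adjusted p (log2 fold change 0.71, or 0.14 with the prior, and BIRC3 0.17 with the prior). It ranged from 0 to 2 when one sample was left out (0 without control replicate 2, control replicate 4 or A20 siRNA replicate 3, and 1 without control replicate 3). TNFAIP3, SNORA26 and CATSPER2P1 also received no adjusted p with DESeq2, and CXCL8, TNFSF13, SEPTIN4 and OGFRP1 neither there nor, being filtered out, with at least 10 counts in every sample. The number of all genes called higher, 85 as reported, was 314 without a filter, 614 without control replicate 1 and A20 siRNA replicate 2 (added after seeing the data), and 6 to 567 with one sample left out. The number called lower, 82 as reported, was 310, 483 and 6 to 430 in those settings, and 137 with the length correction. Among the fits that left out one sample, the lowest counts came without A20 siRNA replicate 3 and the highest without control replicate 1. SEPTIN4 reversed, to 0.014, without control replicate 3 (range -0.26 to 0.014).

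With the replicate number as a block (replicate block) 262 genes were higher and 212 lower, and with the block and the length correction 231 and 273. For samples of the same number, deviations from the group means correlated by 0.084, 0.034, 0.035 and -0.010 across genes. Of the 4 control samples only replicates 1 and 2 correlated best with their own number. The labels do not say whether samples of the same number were handled together, and these correlations cannot settle it. Under the block TRAF1 and BIRC3 kept their calls, and BIRC6 (0.11, adjusted p = 0.00724) gained one, as it did without a filter (adjusted p = 0.00202). BIRC6 was not called with the length correction, alone or with the block, and its log2 fold change was 0.07 with the correction alone.

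Among the TRAF and IAP genes depth limits TRAF1 most, with 155 reads over all control samples and 264 over all A20 siRNA samples.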

Other observations

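The genes closest to TRAF1 and BIRC3 in pattern were sought by the root mean square difference of mean-centred log2 CPM over the 8 samples, a measure that says nothing of shared function. TRAF1 and BIRC3 were selected on the contrast of A20 siRNA with control siRNA, so genes matched to their pattern carry that selection. The similar fold changes follow largely from the matching, and the calls below are descriptions. Closest to TRAF1 were SNORA26 (0.096), CATSPER2P1 (0.133) and OGFRP1 (0.157), all at under 1 CPM in both groups, and all at an adjusted p above the threshold in the edgeR fit. Closest to BIRC3 were ZNF138 (0.048), SAMD9L (0.078) and RAB2B (0.081). ZNF138 went from 14.5 to 17.8 CPM, a log2 fold change of 0.30 equal to that of BIRC3 (edgeR, adjusted p = 0.00905, and 0.0594 without A20 siRNA replicate 3). RAB2B went from 15.3 to 18.1 CPM (edgeR, adjusted p = 0.0367), a call that was lost in 6 of the 8 fits that left out 1 sample, with adjusted p-values up to 0.149. SAMD9L, an interferon-inducible gene, went from 6.89 to 8.07 CPM with an adjusted p of 0.154.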
